A study of Homo sapiens with 24 samples.

Results

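The desmosome genes described here are 10 genes chosen by name: DSP, JUP, PKP1, PKP2, PKP3, PKP4, DSG2, DSC2, DSC3 and PERP, out of 28278 genes in the count table. All 10 were found by symbol, and 9 of them were among the 15642 genes with enough counts to test. DSC3, with 8 counts over all libraries, was not tested. The series is RNA sequencing of 24 libraries from TYUC-1 cells, which grow in suspension and derive from a human neuroendocrine carcinoma of the esophagus. One engineered line carried inducible TAp63 and the other inducible ΔNp63, the transcription factor isoforms made from alternative TP63 promoters. Each line was sampled after 0, 1, 3 or 6 days of doxycycline at 1 µg/ml, with the vehicle DMSO for the rest of a 6 day course, which gives 8 groups of 3 libraries. Every sample also has a label naming EPZ-6438, an EZH2 inhibitor, for the same number of days as the doxycycline, and the labels do not settle whether it was present. Days of p63 induction, of doxycycline and of any inhibitor therefore cannot be told apart. Doxycycline-treated cells without a p63 construct are not analysed here. Replicates are called biological, but the labels leave out whether they were separate cultures, and the p-values rest on the spread between libraries, which may be technical.

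Desmosomes are junctions that tie the keratin filaments of neighbouring epithelial cells together. The desmosomal cadherins, desmogleins (DSG) and desmocollins (DSC), span the membrane, the armadillo proteins plakoglobin (JUP) and plakophilins (PKP) bind their tails, and the plakin desmoplakin (DSP) anchors the plaque to keratins. PERP is a tetraspan membrane protein of desmosomes and a known target of p63 in stratified epithelia, where p63 is required and desmosomes are abundant.

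Levels are CPM, counts scaled to a common library size with TMM factors. Totals ran from 6375963 to 22019974 counts per library, apart from replicate 3 of ΔNp63 day 1, which held 1530847 and stood apart in its composition. That library had a summed level of 5 erythroid markers of 2580.5 CPM, against at most 44.4 CPM in the other 23. Its levels of the desmosome members are given separately, while totals and tests over all libraries include it. TP63 rose from 2.93 ± 0.0361 to 655 ± 41.3 CPM by day 6 in the TAp63 line and from 4.35 ± 0.517 to 926 ± 100 CPM in the ΔNp63 line (mean ± SD, n = 3). The neuroendocrine marker list summed to 86.0 to 114 CPM over the 6 day 0 libraries. Its members SYP and CHGA had group means of 2.84 to 4.27 and 0.257 to 0.683 CPM on days 0 and 6. Fewer cells expressing a gene and less RNA per cell cannot be told apart in such bulk libraries.

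TYUC-1 cells had RNA of the intracellular desmosomal plaque but very little of any desmosomal cadherin, and DSP, JUP, PERP, PKP2, PKP3 and PKP4 differed by less than 0.2 on the log2 scale at day 6 of either isoform in the test over all libraries, with no call. Without TAp63 day 6 replicate 1 the TAp63 values reached 0.34 for PERP, −0.27 for PKP4 and −0.20 for DSP, also uncalled. PKP1, the plakophilin of the upper layers of stratified epithelia, had the largest day 6 difference among the tested members other than the sparsely counted DSG2 and DSC2: it was 1.59-fold higher at day 6 than at day 0 of ΔNp63 induction. In the edgeR test over all 24 libraries this did not pass the threshold of an adjusted p of 0.05 (adjusted p = 0.107). It passed when the replicate number was a term of the model (adjusted p = 0.0263), and also without the library that stood apart (adjusted p = 0.000248). The TAp63 line gave no such difference, with PKP1 1.04-fold higher at day 6 (95% interval 0.777 to 1.39). The difference between the lines' day 6 changes of PKP1 was not called over all libraries. It passed in 1 of 19 alternative analyses. DSG2 and DSC2, the cadherins with the most counts, were at most 2.30 and 0.988 CPM in 23 libraries.

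PKP1 had higher levels on the last day of ΔNp63 induction than without induction. This difference did not pass the edgeR test over all libraries and passed only in some alternative analyses. PERP is a known p63 target and did not pass the test here. Promoter sequences are shown for PKP1 and PERP for these reasons. They are RefSeq windows on GRCh38.p14, from 250 bases before to 50 bases after a gene start, printed 5′ to 3′ on the gene's strand. In PKP1 (chr1:201283256-201283555, plus strand) the capitals mark CATG, the core letters of many p53-family sites, 214 bases before the start. They also mark the GC box GGGCGG 14 bases before it. This RefSeq start lies inside the counted span of PKP1, which begins at 201283452. In PERP (chr6:138107370-138107669, minus strand) the capitals mark TGANTCA, the letters bound by AP-1 factors, 101 bases before the start. The GGGCGG matches of PERP are left in lower case. Neither window holds the full p53-family decamer, the half-site searched for below.
PKP1: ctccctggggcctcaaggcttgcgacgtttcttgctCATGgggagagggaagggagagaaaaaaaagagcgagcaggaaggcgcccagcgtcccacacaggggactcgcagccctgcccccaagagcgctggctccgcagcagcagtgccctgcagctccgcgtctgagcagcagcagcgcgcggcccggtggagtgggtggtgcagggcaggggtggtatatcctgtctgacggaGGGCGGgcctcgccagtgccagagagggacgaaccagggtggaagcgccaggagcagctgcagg
PERP: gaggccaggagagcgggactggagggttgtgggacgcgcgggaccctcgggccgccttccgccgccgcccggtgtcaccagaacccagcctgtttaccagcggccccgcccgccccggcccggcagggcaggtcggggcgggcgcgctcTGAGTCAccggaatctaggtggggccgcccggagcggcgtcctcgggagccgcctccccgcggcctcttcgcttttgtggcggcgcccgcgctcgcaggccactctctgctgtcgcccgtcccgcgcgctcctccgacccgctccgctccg

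The RefSeq table held promoters for 8 of the 10 genes, 11 windows in all; PKP2 and PKP3 were not matched. Both strands of each window were searched. CATG lay in 1 of the 11 windows, that of PKP1, and in 54.9% of all 35116 promoters in the table. TGANTCA lay in 1 window, that of PERP, and in 7.71% of all promoters. Among the 11 windows the p53-family decamer lay in that of DSC3 alone, so the PKP1 and PERP windows lacked it. It lay in 6.63% of all promoters. GGGCGG lay in 9 of the 11 windows and in 45% of all promoters, and it was found near DSP, JUP, PKP1, PKP4, DSG2, DSC2 and PERP but not near DSC3. These matches describe letters only. Different motifs do not overlap one another in the windows shown, though some GGGCGG matches overlap each other in that of PERP.

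Levels per kilobase of merged exons allow genes to be compared with each other. The cadherin members lay near 0, and the plaque genes and the membrane protein PERP lay higher. Over the 6 day 0 libraries of both lines, JUP was highest at 137 ± 26.7 CPM per kilobase, followed by DSP at 65.0 ± 10.4 and PERP at 43.7 ± 5.16 (mean ± SD, n = 6). Among plakophilins PKP3 stood first at 31.1 ± 2.70 CPM per kilobase, then PKP4 at 14.9 ± 1.01, PKP2 at 9.56 ± 0.995 and PKP1 at 8.99 ± 0.777. PKP1 and PKP2 did not differ by more than this spread. The cadherins were at 0.191 ± 0.128 CPM per kilobase for DSG2, 0.0203 ± 0.0307 for DSC2 and 0.00248 ± 0.00387 for DSC3. The deposited counts include introns, so unspliced RNA of long genes, above all PKP4 with a span of 226009 bases, also enters these levels.

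**Figure D1:**
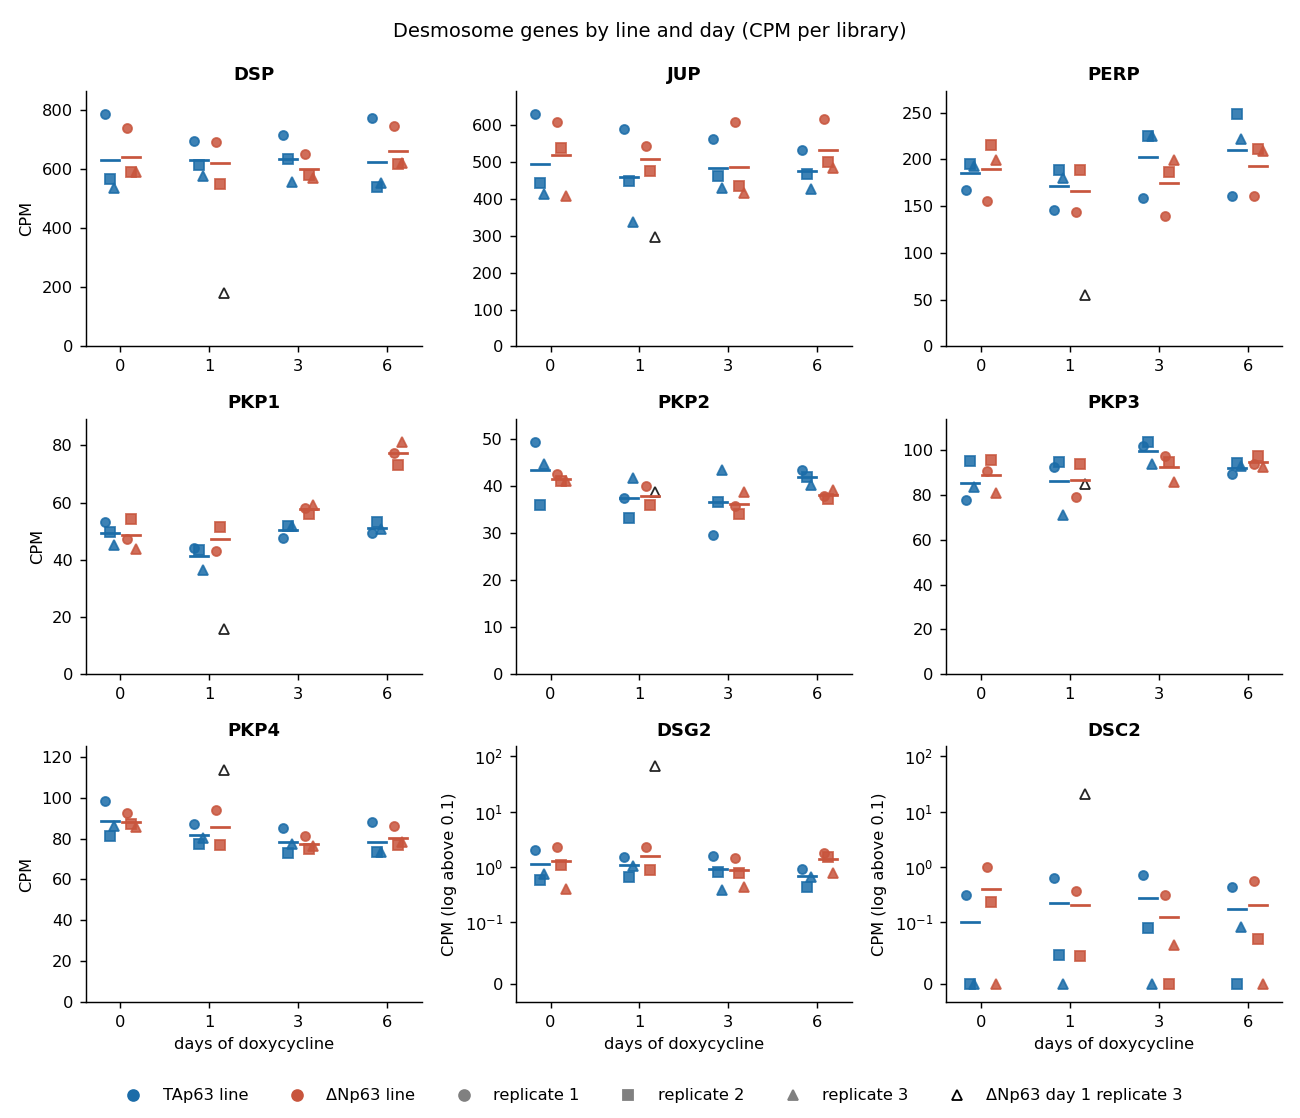
Levels of the 9 tested desmosome genes in every library, as CPM on the vertical axis (logarithmic above 0.1 for DSG2 and DSC2) against days of doxycycline; colours are the lines, marker shapes the replicate numbers, and bars the group means without the library that stood apart (open triangle, ΔNp63 day 1 replicate 3). PKP1 is highest in the 3 ΔNp63 day 6 libraries, at 73.0 to 81.2 CPM, while DSP and JUP are highest in replicate 1 libraries and DSG2 and DSC2 stay near 0 except in the open triangle.

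DSG2, the desmoglein of simple epithelia and heart, lies on chromosome 18 at 31498177 to 31549007 (hg38, plus strand). Its counts summed to 27 to 53 per group, leaving out the library that stood apart. In the ΔNp63 line it was at 2.30, 1.08 and 0.394 CPM on day 0 and at 1.79, 1.51 and 0.790 CPM on day 6. TAp63 libraries had 2.0, 0.580 and 0.743 CPM on day 0 and at 0.928, 0.438 and 0.648 CPM on day 6. These groups overlap in both lines. The log2 changes at day 6 were 0.19 for ΔNp63 (95% interval −2.01 to 2.38) and −0.57 for TAp63 (−2.96 to 1.82), both at an adjusted p of 1.00 in edgeR, and both intervals are too wide to exclude a several-fold change.

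DSC2, a desmocollin also found in simple epithelia, lies on chromosome 18 at 31058841 to 31102421 (minus strand). Of its 94 counts, 31 came from the library that stood apart and 52 from the 8 replicate 1 libraries. Replicate 1 libraries ran from 0.306 to 0.988 CPM, replicate 2 libraries from 0 to 0.227 CPM and the other replicate 3 libraries from 0 to 0.0926 CPM. At day 6 its log2 change was −0.68 in the ΔNp63 line (95% interval −4.52 to 3.16) and 1.66 in the TAp63 line (−3.55 to 6.87), with no call in either. DSC3, the desmocollin of basal layers of stratified epithelia on chromosome 18 at 30989365 to 31042815, had at most 1 count in any group but ΔNp63 day 1. The 2 counts of ΔNp63 day 1 both came from the library that stood apart. DSG2-AS1 and DSCAS are antisense genes that overlap DSG2 and DSC2, and the counting used no strand, so their reads cannot be told apart from those of DSG2 and DSC2.

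The other desmosomal cadherins were at or near 0 counts as well. DSG1 had 1 to 4 counts per group and DSG3, the desmoglein of basal squamous cells, 0 to 5. DSG4 had 0 counts in every group, and DSC1 had 0 in 7 groups and 3 in ΔNp63 day 1. A count of 0 allows up to 3 counts per group, which is at most 0.0887 CPM in any group, and this limit covers counting error only. Neither p63 isoform was followed by a level of DSG1, DSG3, DSG4 or DSC1 above 0.103 CPM in a day 6 group mean.

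The highest cadherin values in the data came from 1 library. In ΔNp63 day 1 replicate 3 DSG2 was at 65.8 CPM and DSC2 at 20.6 CPM, against 2.24 and 0.861 CPM for DSG2 and 0.362 and 0.0453 CPM for DSC2 in the other 2 libraries of that group. The day 1 log2 change of ΔNp63 was 4.05 for DSG2 and 3.73 for DSC2 with this library, and 0.29 and −1.05 without it, none of them called by edgeR. DESeq2 called DSG2 at that day (log2 change 4.18, adjusted p = 0.00422), in a fit that called 3.44% of all genes. The same library held 1727 CPM of HBG2, a fetal globin, and 835 CPM of VIM, which marks mesenchymal and blood cells, while it had the lowest levels in the data of DSP (180 CPM), JUP (297 CPM), PERP (54.5 CPM) and PKP1 (16 CPM). PKP2 and PKP3, at 38.6 and 85.1 CPM there, lay within the range of the other libraries, and PKP4, at 114 CPM, lay above it.

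HBG2 and VIM also followed the replicate number in the other 23 libraries. DSC2 was likewise highest in replicate 1. The DSG2 ranges of replicates 1, 2 and 3 overlapped, at 0.928 to 2.30, 0.438 to 1.51 and 0.385 to 1.05 CPM. HBG2 was at 13.4 to 30.6 CPM in replicate 1, 0.647 to 6.89 CPM in replicate 2 and 0.131 to 0.948 CPM in replicate 3. VIM was at 9.19 to 21.6, 0.719 to 3.90 and 0.188 to 0.656 CPM in the same order. The summed erythroid markers ran from 18.1 to 44.4 CPM, 0.863 to 10.1 CPM and 0.459 to 1.18 CPM, with HBB at 0 in replicates 2 and 3. Their part in the DSG2 and DSC2 values was not tested.

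JUP, plakoglobin, which binds the tails of desmosomal and classical cadherins, lies on chromosome 17 at 41754607 to 41786768 (minus strand). In the ΔNp63 line it was at 608, 538 and 409 CPM on day 0 and at 617, 499 and 485 CPM on day 6. TAp63 libraries had 629, 443 and 413 CPM on day 0 and 532, 468 and 427 CPM on day 6. The groups overlap, and the libraries order by replicate number rather than by day: 532 to 629 CPM in replicate 1, 436 to 538 CPM in replicate 2 and 338 to 485 CPM in replicate 3. The log2 change at day 6 was 0.04 (95% interval −0.44 to 0.52) for ΔNp63 and −0.06 (−0.54 to 0.42) for TAp63.

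DSP, desmoplakin, the plakin that joins the plaque to keratin filaments, lies on chromosome 6 at 7541671 to 7586714 (plus strand). It was the member with the highest CPM in every group. ΔNp63 libraries had 739, 593 and 593 CPM on day 0 and 747, 619 and 623 CPM on day 6, and TAp63 libraries 788, 569 and 537 CPM on day 0 and 775, 542 and 554 CPM on day 6. Replicate 1 was again the highest within each of these groups, at 652 to 788 CPM over all days against 542 to 636 and 537 to 623 CPM in replicates 2 and 3. Its log2 change at day 6 was 0.05 (−0.55 to 0.64) for ΔNp63 and −0.02 (−0.61 to 0.58) for TAp63. With the replicate number in the model and without the library that stood apart, hereafter the narrower fit, these intervals narrowed to −0.10 to 0.20 and −0.16 to 0.13, both ending below the lower end of the ΔNp63 interval of PKP1 in the same fit, 0.49.

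PERP (chromosome 6, 138088505 to 138107419, minus strand) is the member best known as a direct p63 target. It was at 155, 216 and 199 CPM on day 0 and 161, 211 and 209 CPM on day 6 of ΔNp63, and at 167, 195 and 193 CPM on day 0 and 161, 248 and 222 CPM on day 6 of TAp63. Replicate 1 had the lowest PERP of every group but that with the library that stood apart, 140 to 167 CPM against 186 to 248 and 180 to 225 CPM. The log2 change at day 6 was 0.03 (95% interval −0.55 to 0.60) for ΔNp63 and 0.18 (−0.39 to 0.76) for TAp63. In the narrower fit the TAp63 value was 0.17 (0.03 to 0.31), with an adjusted p of 0.203 in edgeR, so PERP did not pass the test in either line.

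PKP1 lies on chromosome 1 at 201283452 to 201332993 (plus strand), and no other gene of the annotation overlaps it. In the ΔNp63 line its levels in replicates 1, 2 and 3 were 47.4, 54.3 and 43.9 CPM on day 0, 43.1, 51.5 and 16 CPM on day 1, 58.3, 56.2 and 59.0 CPM on day 3, and 77.4, 73.0 and 81.2 CPM on day 6. In the TAp63 line they were 53.2, 49.9 and 45.2 CPM on day 0, 44.3, 43.4 and 36.6 CPM on day 1, 47.8, 51.8 and 51.9 CPM on day 3, and 49.6, 53.3 and 50.8 CPM on day 6. The ΔNp63 day 6 libraries lie above all others, and the ΔNp63 day 3 libraries lie above the remaining 18, with no overlap in either case. How many of all genes separate in this way is not given here. The TAp63 libraries of days 0, 3 and 6 overlap one another, and those of TAp63 day 1 lie just below them.

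In order of group mean, PKP1 was at 41.4 ± 4.22 CPM on TAp63 day 1, 48.6 ± 5.31 on ΔNp63 day 0, 49.4 ± 4.01 on TAp63 day 0, 50.5 ± 2.32 on TAp63 day 3 and 51.2 ± 1.93 on TAp63 day 6 (mean ± SD, n = 3). ΔNp63 day 1 had 36.9 ± 18.6 CPM, or 47.3 CPM over the other 2 libraries. Neighbours in this order overlap in their libraries and do not differ beyond that spread. ΔNp63 day 3 followed at 57.8 ± 1.47 CPM and day 6 at 77.2 ± 4.11 CPM. ΔNp63 held 2202 PKP1 counts on day 0 and 2522 on day 6.

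The ΔNp63 day 6 log2 change of PKP1 was 0.67 ± 0.20 (SE; 95% interval 0.25 to 1.09), with an unadjusted p of 0.00337 and an adjusted p of 0.107 in edgeR over all libraries. None of the 9 tested members was called there, against 2.03% of all tested genes. PKP1 was the 1 member with an unadjusted p under 0.05 in edgeR, a level that 9.33% of all tested genes reached. By p, PKP1 ranked 492 of 15642 tested genes. Its estimate kept to 0.60 to 0.76 over 13 alternative analyses, with adjusted p-values from 2.81e-06 to 0.389. PKP1 was called in 5 of them: with the replicate number as a block (4.56% of all genes called), without ΔNp63 day 1 replicate 3 (4.97%), with both (14.1%), with DESeq2 (adjusted p = 0.0155, 2.68%), and in edgeR on the libraries of days 0 and 6 alone (adjusted p = 0.0137, 3.41%). Beside it, the summed squamous markers went from 6.17 to 8.86 CPM on day 0 to 30.1 to 31.2 CPM on day 6, and the summed immune markers, mostly LYZ, from 916 to 1096 CPM to 492 to 665 CPM. Summed tuft cell markers went from 283 to 304 CPM to 194 to 210 CPM, and summed neuroendocrine markers from 95.1 to 114 CPM to 120 to 135 CPM. With TAp63, where PKP1 showed no such difference, the squamous sum went from 5.24 to 8.17 CPM to 17.6 to 30.3 CPM. The TAp63 immune sum was 1084 to 1427 CPM on day 0 and 870 to 1306 CPM on day 6, and these overlap. The tuft sum went from 282 to 343 CPM to 235 to 242 CPM with TAp63. The neuroendocrine sum there went from 86.0 to 99.1 CPM to 98.9 to 115 CPM. KRT5, a member of the squamous list, differed between the lines in its day 6 change, as given below. The squamous sums of the lines therefore do not rest on the same share of KRT5. The part of the summed markers in the PKP1 value was not tested.

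At earlier days the PKP1 differences were smaller. At day 3 of ΔNp63 the log2 change was 0.25 (95% interval −0.17 to 0.67; adjusted p = 0.735), and none of the 9 members was called, against 2.2% of all tested genes. With the block and without the library that stood apart it was 0.25 (0.08 to 0.43; adjusted p = 0.0336 in edgeR), in a fit that called 23.5% of all genes. The step from day 3 to day 6, a comparison added after the levels had been seen, had a log2 change of 0.42 (0.00 to 0.83) with no member called, against 0.0128% of all genes, and an adjusted p of 0.0126 in the narrower fit, in which 1.51% were called. At day 1 it was −0.29 with the library that stood apart and −0.04 without it, and no member was called at that day, against 0.0959% of all genes.

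In the TAp63 line none of the 9 tested members was called at day 1, 3 or 6, against 0.121%, 0.435% and 0.441% of all tested genes. PKP1 had log2 changes of −0.25 (95% interval −0.67 to 0.17) at day 1, 0.03 (−0.39 to 0.45) at day 3 and 0.06 (−0.36 to 0.47) at day 6. The narrower fit gave −0.12 to 0.24 at day 6, an interval that lies below the whole of the ΔNp63 one, 0.49 to 0.84. The difference between the lines' day 6 responses, TAp63 minus ΔNp63, was −0.61 ± 0.28 (unadjusted p = 0.0436, adjusted p = 1.00 in edgeR), with no member called against 0.0831% of all genes. Without the library that stood apart it had an adjusted p of 0.0910, and with the block as well −0.60 and 0.00703, where 1.87% of all genes were called. At day 3 this difference was −0.22, with no member called against 0.0448% of all genes, and the log2 difference of PKP1 between the uninduced lines was 0.02, with no member called against 0.0128%.

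**Figure D2:**
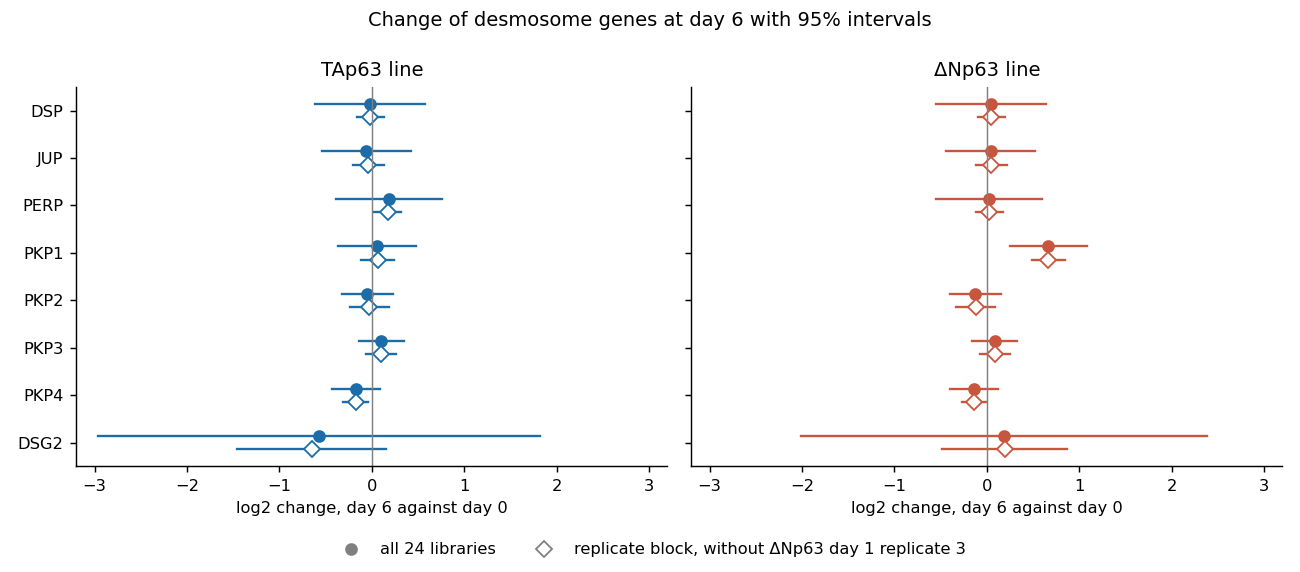
Log2 change from day 0 to day 6 (horizontal axis) of 8 desmosome genes in each line, with 95% intervals, from all 24 libraries (filled circles) and with the replicate number in the model and without ΔNp63 day 1 replicate 3 (open diamonds); DSC2 is left out because its intervals are wider than the axis. PKP1 in the ΔNp63 line, at 0.67, is the only gene shown whose intervals from both fits lie on 1 side of 0.

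PKP2, PKP3 and PKP4, the other plakophilins, did not follow PKP1. PKP2 (chromosome 12, 32790746 to 32896846, minus strand), found in simple epithelia and heart, was at 42.5, 41.0 and 41.0 CPM on day 0 and 37.9, 37.2 and 39.2 CPM on day 6 of ΔNp63, a log2 change of −0.12 (95% interval −0.40 to 0.15). PKP3 (chromosome 11, 392596 to 404908, plus strand), broadly found in epithelia, was at 91.0, 95.6 and 80.9 CPM on day 0 and 93.7, 97.4 and 92.7 CPM on day 6, a log2 change of 0.09 (−0.16 to 0.33). PKP4 (chromosome 2, 158456880 to 158682888, plus strand), a relative of p120 catenin also found at adherens junctions, was at 92.5, 87.0 and 85.6 CPM on day 0 and 86.1, 76.8 and 78.5 CPM on day 6, a log2 change of −0.13 (−0.39 to 0.13). The day 6 libraries of PKP2 lie below those of day 0 without overlap, those of PKP4 overlap, and none of the 3 genes passed the test. Within same-numbered ΔNp63 libraries PKP2 and PKP4 were lower on day 6 than on day 0 in 3 of 3 pairs. PKP3 was higher in 3 of 3. The share of all genes with such separation or such pairs is not given here.

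The day 6 log2 changes in the TAp63 line were −0.05 (−0.32 to 0.23) for PKP2, 0.11 (−0.14 to 0.35) for PKP3 and −0.17 (−0.43 to 0.08) for PKP4. PKP4 was at 98.3, 81.2 and 86.2 CPM on day 0 and 88.2, 73.2 and 73.5 CPM on day 6 of TAp63, lower in 3 of 3 pairs. With the narrower fit its day 6 changes were −0.14 (−0.27 to −0.01; adjusted p = 0.170) for ΔNp63 and −0.18 (−0.31 to −0.04; adjusted p = 0.147) for TAp63, neither called. PKP4 had its lowest group mean on ΔNp63 day 3, at 77.6 ± 3.22 CPM, and its log2 change there was −0.19 (−0.45 to 0.07; adjusted p = 0.637 in edgeR). In the narrower fit the same value of −0.19 passed (adjusted p = 0.0291), 1 of 2 members called with PKP1 where 23.5% of all genes were. PKP4-AS1 overlaps PKP4 on the other strand and had 44 counts in all, so its reads cannot be told apart from those of PKP4. Leaving out the library that stood apart, the ratio of highest to lowest group mean was 1.20 for PKP2, 1.17 for PKP3 and 1.14 for PKP4, against 1.86 for PKP1.

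Set against the counts of PKP2 and PKP3 in the same library, which needs no library size, PKP1 again stood highest on ΔNp63 day 6 and next on day 3. This share was added after the levels of PKP1 had been seen and uses the same PKP1 counts, so it gives no separate support. Its permutation test took no account of the replicate number. PKP1 made up 26.2%, 28.5% and 26.5% of the counts of PKP1, PKP2 and PKP3 together on ΔNp63 day 0, 30.4%, 30.4% and 32.1% on day 3, and 37.0%, 35.1% and 38.1% on day 6. The day 6 share was 36.8 ± 1.5% against 27.1 ± 1.23% on day 0 (SD, n = 3), a difference of 9.71 percentage points with an exact two-sided permutation p of 0.1, the smallest that 3 against 3 libraries can give. For TAp63 it was 27.7 ± 1.72% on day 0 and 27.7 ± 0.479% on day 6 (exact permutation p = 1). Days 0, 3 and 6 do not overlap in the ΔNp63 line, whereas those of the TAp63 line do, with TAp63 day 1 below them at 25.1 ± 0.515%. The library that stood apart had a share of 11.4% (exact binomial 95% interval 7.46% to 16.5%, counting error only).

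**Figure D3:**
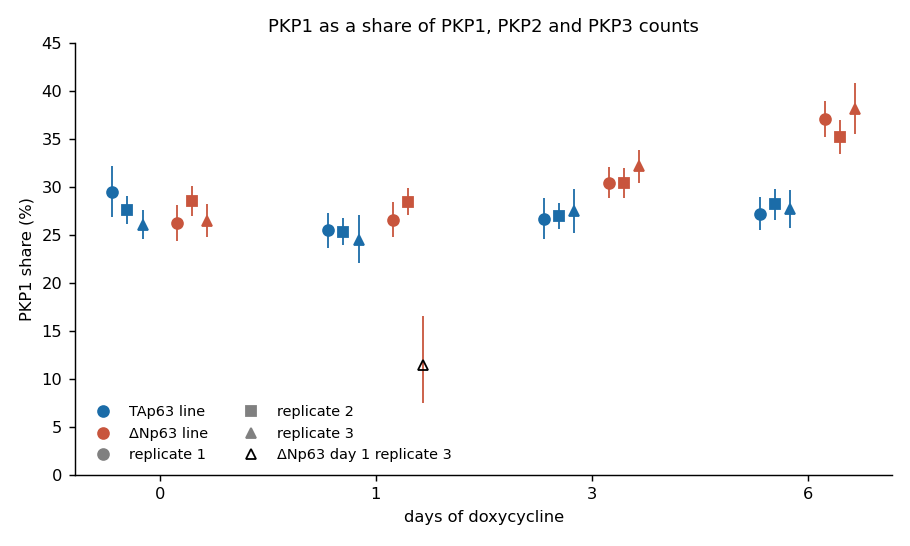
PKP1 counts as a percentage of PKP1, PKP2 and PKP3 counts in each library (vertical axis) against days of doxycycline, with exact binomial 95% intervals as vertical lines; colours are the lines, shapes the replicates, and the open triangle is ΔNp63 day 1 replicate 3. The ΔNp63 libraries stand at 26.2% to 28.5% on day 0 and at 35.1% to 38.1% on day 6, and the TAp63 libraries of day 6 at 27.2% to 28.2%.

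Around the desmosome, the keratins that its plaque anchors gave the clearest changes at day 6 of ΔNp63. Of 11 tested keratin genes 5 rose and none fell, where 2.03% of all tested genes were called, with a median log2 change of 0.79 against −0.01 over all genes. KRT5, the basal squamous keratin, rose by 5.11 on the log2 scale (0.641 ± 0.108 to 22.5 ± 3.46 CPM), and KRT13 and KRT4, keratins of the esophageal lining, by 3.31 and 3.01. KRT15 rose by 2.02 and KRT19 by 0.79 (edgeR, adjusted p = 5.84e-08 to 0.0114 over the 5). The median over the 9 tested desmosome members was 0.04. In the TAp63 line none of the 11 keratins passed, against 0.441% of all tested genes, with a median of 0.47, and the difference between the lines was called for KRT5 alone (−4.61, TAp63 minus ΔNp63; adjusted p = 0.00063), against 0.0831% of all genes.

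Of the other desmosome and plakin genes, none of the 4 tested (PPL, EVPL, DST and PLEC) was called at day 6 in either line, against 2.03% of all tested genes for ΔNp63 and 0.441% for TAp63. PPL, periplakin, chosen for mention after its values were seen, stood at 59.9 ± 10.5 CPM on day 0 and 101 ± 13 CPM on day 6 of ΔNp63, a log2 change of 0.76 (adjusted p = 0.348; 0.00360 without the library that stood apart). EMP1, an epithelial membrane protein named with PERP in the list of tetraspan genes and p53-family targets, rose by 1.12 in the ΔNp63 line (adjusted p = 0.0261), 1 of 5 tested in that list against 2.03% of all genes, and stood at 10.8 and 23.1 CPM on days 0 and 6 of TAp63 (adjusted p = 0.1).

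No gene of the other junction lists passed at day 6 in the fit of all libraries: 0 of 13 adherens junction genes, 0 of 11 tight junction genes, 0 of 4 gap junction genes and 0 of 6 epidermal p63 partners in each line, against the same 2.03% and 0.441% of all genes. At an unadjusted p under 0.05 in edgeR the numbers were 2, 2, 1 and 2 for ΔNp63, against 9.33% of all tested genes, and 2, 0, 0 and 1 for TAp63, against 4.09%. With the block and without the library that stood apart, 4 adherens junction genes rose and 1 fell in the ΔNp63 line, where 14.1% of all genes were called. Those that rose were NECTIN1 (0.55), CDH1, E-cadherin (0.29), CTNNB1, beta-catenin (0.25), and VCL, vinculin (0.22). The gene that fell was CTNND2 (−0.66). In the same fit the tight junction genes CLDN4 and CGN both fell by 0.56.

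**Figure D4:**
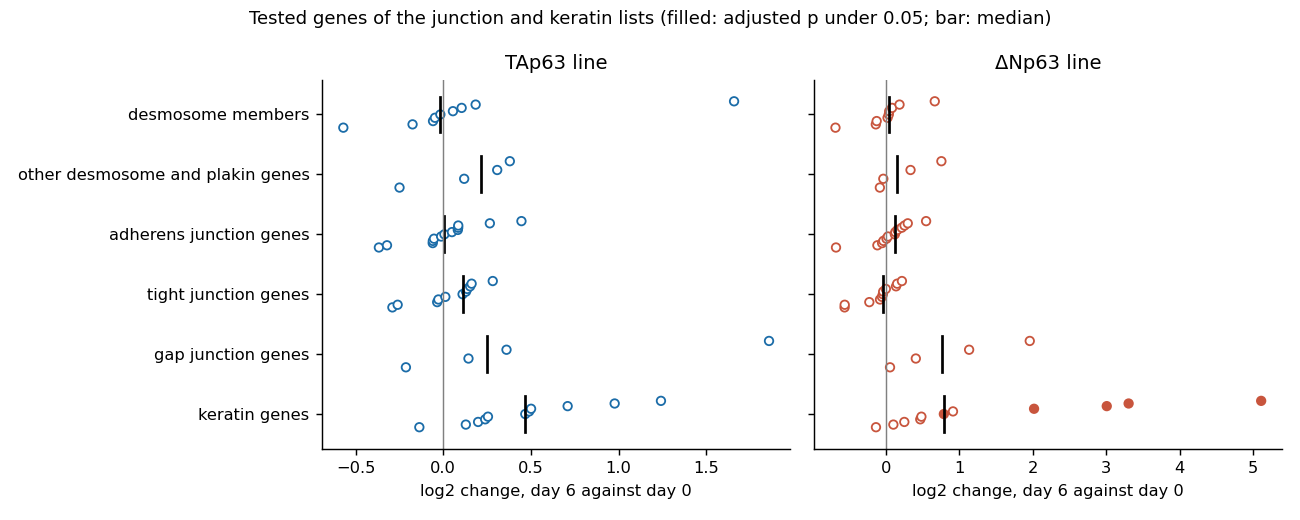
Log2 change from day 0 to day 6 (horizontal axis, with a different range in each panel) of the tested genes of the desmosome, other junction and keratin lists in both lines, over all 24 libraries; each circle is a gene, filled where its adjusted p is under 0.05, and bars are list medians. The filled circles are the 5 keratins of the ΔNp63 line, from 0.79 to 5.11, and no desmosome gene is filled.

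Since PKP1 was not called over all libraries, the genes most like it were chosen after its values were seen, by Pearson correlation of log2 CPM over the 23 libraries other than ΔNp63 day 1 replicate 3. WNT7B, a Wnt ligand, came first (r = 0.93), at 23.2 ± 1.92 CPM on day 0 and 53.5 ± 3.90 CPM on day 6 of ΔNp63 (log2 change 1.20, adjusted p = 0.00083 in edgeR). SERPINF1 (r = 0.91) and SOCS1 (r = 0.91) followed, with log2 changes of 0.86 and 1.86 that did not pass (adjusted p = 0.0884 and 0.0764). The other 8 tested members had correlations with PKP1 from −0.23 for PKP4 to 0.45 for PKP3. All these points share libraries and replicate numbers, so the correlations are descriptions.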

How the data were processed

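RNA-seq counts of 24 libraries were analysed. HISAT2 2.1.0, featureCounts 1.6.1, DESeq2 and the build hg38 are named, per the submitters' processing notes. Per the file headers, the deposited counts came from featureCounts 2.0.0 run on refGene transcript spans, introns included, with no strand option. They are raw and not normalized. Library groups were taken from the sample titles.

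Counts were tested with edgeR 4.0.16 in R 4.3.3 (filterByExpr, TMM, glmQLFit, glmQLFTest) with 8 group means and 16 residual degrees of freedom, over 15642 genes. Calls are genes whose p, adjusted by Benjamini-Hochberg over all tested genes, was under 0.05. SE was derived from the log2 change and its F statistic, and intervals are 95%. Totals per library ran from 1530847 to 22019974 counts. No replicate pair agreed within sampling noise (lowest chi-square per degree of freedom 5.36). The edgeR steps were tested on simulated data.

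Replicate numbers from the titles pair the libraries: deviations from group means correlated above 0.1 in 77 of 77 same-numbered pairs from different groups (r = 0.16 to 0.69), leaving out ΔNp63 day 1 replicate 3. The fit with the number as a block was an alternative, as were leaving out single libraries, DESeq2 1.42.0, other size factors, no filter, and only the compared libraries.

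The 10 members, the other gene lists and the tests were chosen with earlier results of these data known. All members are named; of the other lists, genes called at day 6 or in the day 6 difference between lines, and the remaining desmosomal cadherins. RefSeq promoters are from GRCh38.p14.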

Additional observations from a re-analysis of the deposited data

How the results depend on the processing

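With the replicate number as a block, 1 desmosome gene, PKP1, was called at day 6 of ΔNp63 against 0 without it (log2 change 0.67, adjusted p = 0.0263), and the block changed no other count of called members. That fit called 4.56% of all tested genes at day 6 of ΔNp63. The count there was also 1, again PKP1, without ΔNp63 day 1 replicate 3, without it and with the block, with DESeq2, and with only the compared libraries. In the same order, 4.97%, 14.1%, 2.68% and 3.41% of all genes were called. With ΔNp63 day 1 replicate 3 left out and the block, 2 members (PKP1 and PKP4) were called at day 3 of ΔNp63, and 1 (PKP1) both in the day 6 difference between the lines and in ΔNp63 day 6 against day 3. The shares of all genes called in these 3 comparisons were 23.5%, 1.87% and 1.51%. DESeq2 called 1 member, DSG2, at day 1 of ΔNp63 (4.18, adjusted p = 0.00422), where it called 3.44% of all genes. Leaving out single libraries gave 0 to 1 there, DSG2 being called without replicate 1 or 2. Those fits called 777 of 15906 and 1101 of 15880 genes, and each kept the library that stood apart as 1 of 2 in its group. Other size factors and no filter moved no count.

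The day 1 log2 change of DSC2 in the ΔNp63 line turned from 3.73 to −1.05 without ΔNp63 day 1 replicate 3 and −1.51 with the block as well, and ran from −1.05 to 5.34 over libraries left out. Other uncalled values also changed sign when 1 library was left out. In the ΔNp63 line at day 6 the ranges were −2.77 to 0.92 for DSC2, −0.24 to 0.91 for DSG2, −0.047 to 0.16 for DSP, −0.10 to 0.17 for JUP and −0.10 to 0.14 for PERP. In the TAp63 line they were −0.29 to 4.37 for DSC2, −0.91 to 0.015 for DSG2, −0.20 to 0.17 for DSP, −0.17 to 0.15 for JUP, −0.16 to 0.050 for PKP2 and −0.0068 to 0.11 for PKP1, with −0.028 to 0.086 for PKP1 at day 3. The PKP1 difference between the lines at day 0 ran from −0.046 to 0.11. The cause of these changes was not tested. Depth limits DSG2, DSC2 and DSC3 most, at 439, 94 and 8 counts in all.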
